A study of Mus musculus with 22 samples.

Results

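Inguinal fat (ingWAT, a subcutaneous depot) was set against epididymal fat (epiWAT, a visceral depot) in mice that carried wild-type (WT) bone marrow. The rule took the 4 arrays titled as ingWAT with WT marrow and the 4 titled as epiWAT with WT marrow, 8 of the 22 arrays of the series. All the mice were male C57BL/6J bone marrow chimeras. Their marrow had 6 weeks to reconstitute, and they then ate a diet with 60% of its calories from fat for 14 weeks (the sources used here give no age). For the 8 arrays both the marrow and the recipient were WT, so marrow, diet, sex and strain were shared by both depots. The other 14 arrays are used only for comparison. They hold the same depots of chimeras with Gipr-/- marrow, which lacks the receptor of the gut hormone GIP (3 ingWAT and 4 epiWAT arrays), or with Gipr-/-S100a9-/- marrow, called double-knockout marrow here (3 and 4 arrays).

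White fat depots differ in origin and in the cells they hold. Subcutaneous and visceral adipocytes and their progenitors keep different sets of developmental transcription factors into adult life, among them Tbx15, Shox2 and Hoxc10 in subcutaneous fat and Wt1 and Tcf21 in visceral fat. Visceral depots are covered by mesothelium, a thin epithelial sheet that lines the body cavity. The inguinal depot lies under the skin beside muscle and around a lymph node, and the epididymal depot lies on the epididymis and testis, so a dissected pad can carry pieces of these neighbours. In bulk tissue, fewer cells of a type and less RNA per cell cannot be told apart.

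Expression was read on 1-colour whole-transcript arrays from 100 ng of total RNA. Values are on a log scale taken as log2, so a difference of 1 stands for a 2-fold change, and every difference below is ingWAT minus epiWAT. The adipocyte label held in both depots: Adipoq (adiponectin) read 19.3, 19.0, 18.6 and 19.2 in the 4 ingWAT arrays and 19.3, 18.8, 19.2 and 19.2 in the 4 epiWAT arrays. Lep (leptin) read 17.2 to 18.3 and 17.5 to 18.5. Arrays within a depot correlated with r from 0.947 to 0.982 and arrays of different depots with r from 0.904 to 0.972, so these ranges overlapped. In a principal component analysis of the 8 arrays the first component held 43.1% of the variance. All 4 ingWAT arrays lay on its positive side (12.4 to 72.2) and all 4 epiWAT arrays on its negative side (-106 to -22.2).

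Genes of neighbouring tissues were uneven within each depot, and this bears on every list below. The summed level (log2 of the summed signal) of the skeletal muscle list was 19.3, 20.8 and 22.0 in ingWAT arrays 1 to 3 and 13.6 in ingWAT array 4, against 11.7 to 12.8 in epiWAT. The epididymis list stood at 15.3, 19.2, 10.0 and 12.3 in the 4 epiWAT arrays and at 8.46 to 9.70 in ingWAT. The testis list read 12.7, 14.2, 10.3 and 10.1 in epiWAT and 9.25 to 11.4 in ingWAT. Skin and gland epithelium genes were high in ingWAT arrays 1 and 2 (13.3 and 14.2) and in epiWAT array 2 (14.7), and read 8.98 to 10.9 in the other 5 arrays. The lymph node stroma list read 9.68 to 11.1 in ingWAT and 12.1 to 14.2 in epiWAT, but of its 5 tested members 2 had a positive and 3 a negative difference, with a median of -0.22, and Ccl21a alone passed the threshold. Thus ingWAT array 4 lacked the muscle signal of its group, and epiWAT array 2 stood highest for epididymis, testis and skin genes.

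**Figure D1:**
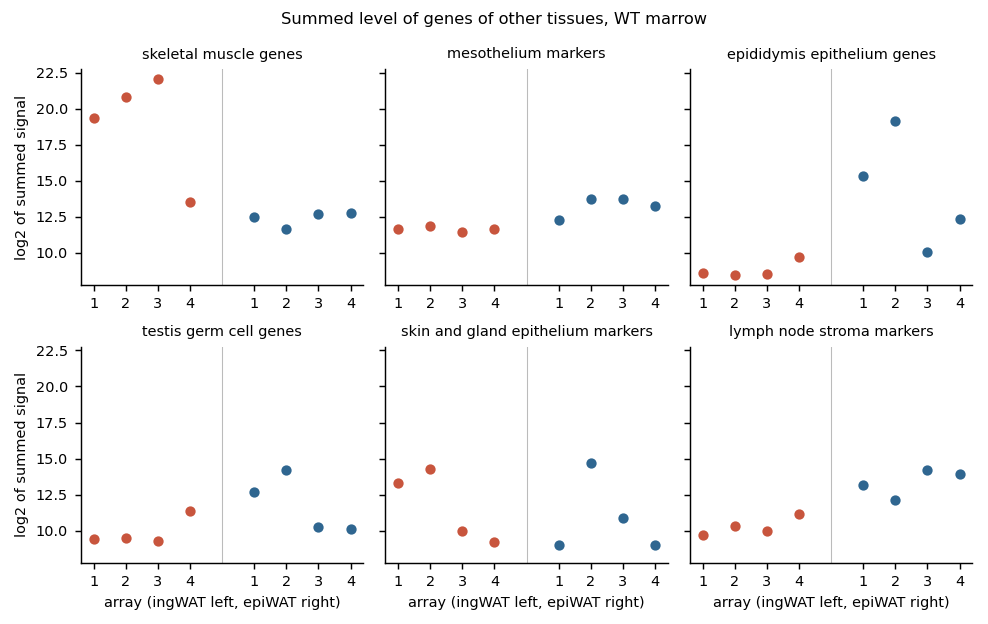
Summed level of the genes of 6 lists (log2 of the summed signal, vertical axis) in each of the 8 WT marrow arrays, with ingWAT arrays 1 to 4 on the left of each panel and epiWAT arrays 1 to 4 on the right; each point is 1 array. Muscle genes are high in ingWAT arrays 1 to 3 (19.3 to 22.0) and low in array 4 (13.6), epididymis genes differ most among the epiWAT arrays (10.0 to 19.2), and mesothelium genes are higher in all 4 epiWAT arrays (12.3 to 13.8) than in all 4 ingWAT arrays (11.4 to 11.8).

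Of 14502 genes tested, 286 (1.97%) differed between the depots by limma at an adjusted p under 0.05. Of these, 149 (1.03% of the genes tested) were higher in ingWAT and 137 (0.945%) were lower. The balance of the directions was not stable over the settings. The split was 150 higher and 81 lower with quantile normalization, but 25 and 104 with the 8 arrays fitted alone, 54 and 100 without the dimmest 50% of genes, and 327 and 464 with array weights. It was 80 and 326 with the epididymis covariate, which was added after the data were seen. The median difference over all genes tested was -0.07. By limma, 2410 of the genes tested (16.6%) reached an unadjusted p under 0.05. Among the 286, 255 differed by over 1 log2 unit and 114 by over 2. In 262 of them the 4 ingWAT arrays did not overlap the 4 epiWAT arrays, where 11.7% of all genes tested showed no overlap. These were 126 of the 149 higher genes (4.38% of all genes tested had every ingWAT array above) and 136 of the 137 lower genes (7.27% had every ingWAT array below). The number of calls depended on every array but 1. Leaving out 1 array gave 152, 138 or 99 genes without ingWAT array 1, 2 or 3 and 318 without array 4. It gave 106, 107, 92 or 136 without epiWAT array 1, 2, 3 or 4. Of the genes given below with values, 81 passed with all arrays and 35 of these also passed without each of the 8 arrays in turn, among them Tbx15, Shox2, Hoxc10, Wt1, Upk3b, Agt, Penk, Kcnj15 and Cdh19. The rest, such as Tcf21, Lcn2, Mbp, Ccl21a, Lyve1, Grb14 and Acly, lost the call without at least 1 array.

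The 2 directions were not spread alike over the ingWAT arrays. For the 149 genes higher in ingWAT, the median difference from the epiWAT mean was 2.31 in ingWAT arrays 1 to 3 and 1.08 in array 4, and in 71 of them array 4 showed under 0.5 of the mean difference of the others. For the 137 lower genes the medians were -1.59 and -1.61, and 4 of them fell under that share. With array 4 as the lone ingWAT array, which is then assumed to vary like the other groups, 281 of the 286 kept their sign. Array 4 helped to choose the 286, and in 262 of them the depots did not overlap, so most signs were fixed in advance. With the muscle list's mean as a covariate, 265 of the 286 kept their sign and 1 gene, Kcnj15, passed. Both settings were added after the data were seen. The muscle covariate itself separated the depots, at 5.86 to 14.7 in ingWAT and 5.07 to 5.30 in epiWAT. It therefore takes up part of the depot contrast for any gene, and the fall in calls cannot tell muscle from depot.

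**Figure D2:**
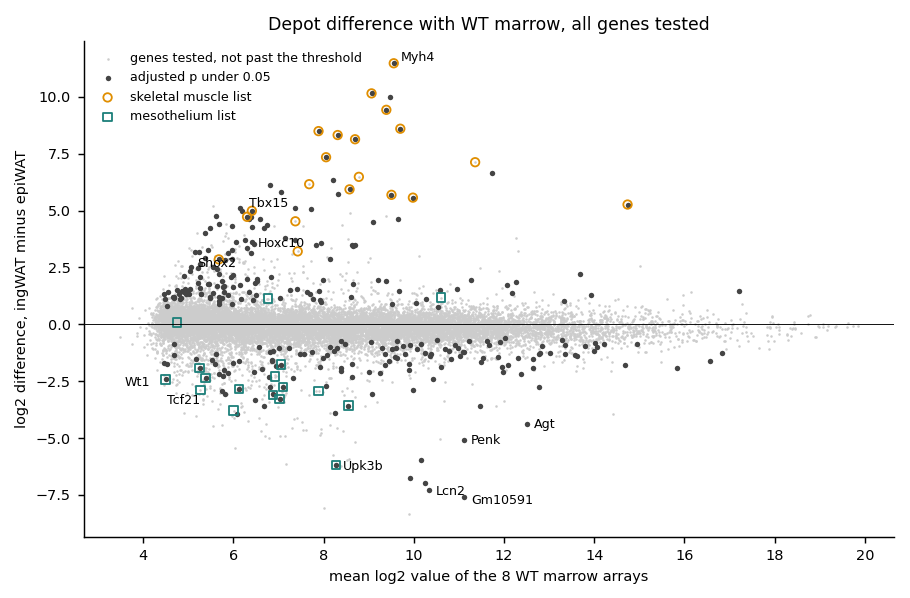
Log2 difference between the depots (ingWAT minus epiWAT, vertical axis) against the mean log2 value of the 8 WT marrow arrays (horizontal axis), 1 point per gene tested. Dark points are the 286 genes past the threshold, orange circles the skeletal muscle list and green squares the mesothelium list; Myh4 (11.48) and Tbx15 (4.97) are labelled on the ingWAT side, Upk3b (-6.19) and Gm10591 (-7.61) on the epiWAT side.

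Developmental transcription factors separated the depots in both directions. Tbx15, a T-box factor of subcutaneous fat progenitors that is also expressed in muscle, read 8.21, 9.10, 10.5 and 6.85 in ingWAT and 4.35, 3.62, 3.37 and 3.48 in epiWAT. All 4 ingWAT arrays were above all 4 epiWAT arrays, with ingWAT array 4 the lowest of its group. The difference was 4.97 (SE 0.53, 31.3-fold, limma adjusted p = 5.11e-05), the smallest p among genes higher in ingWAT. Since muscle genes moved with it, the difference was also taken with ingWAT array 4 alone, where it was 3.14 (limma adjusted p = 0.0428), and with the muscle covariate, where it was 3.01 (limma adjusted p = 0.0794).

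Shox2, a homeobox factor of limb and trunk mesenchyme, read 6.92, 5.71, 6.40 and 5.81 in ingWAT and 3.51, 3.44, 4.17 and 4.39 in epiWAT. The groups did not overlap, and the level in ingWAT array 4 was within that of the others. It differed by 2.33 (SE 0.44, 5.04-fold, limma adjusted p = 0.0111). Hoxc10, a posterior homeobox gene, read 8.08, 7.38, 9.71 and 6.65 in ingWAT and 4.90, 5.05, 4.12 and 5.15 in epiWAT. It differed by 3.15 (SE 0.58, 8.86-fold, limma adjusted p = 0.0101). With ingWAT array 4 alone, which lay above every epiWAT array for both genes, the difference was 1.93 for Shox2 and 1.84 for Hoxc10. In the subcutaneous developmental list 3 of 10 genes tested passed as higher in ingWAT and 0 as lower (1.03% and 0.945% of all genes tested). The list median was 1.24 against -0.07 over all genes. Of the 10, 9 had a positive difference and 1 a negative one, Sfrp2 (-1.58, limma adjusted p = 0.279). With array 4 alone 1 of the 10 passed and the median was 1.40.

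Wt1, a zinc finger factor of visceral fat progenitors and mesothelium, read 3.11, 3.06, 3.43 and 3.56 in ingWAT and 5.83, 5.96, 5.23 and 5.82 in epiWAT. The arrays of each depot lay close together and far apart from the other depot. The difference was -2.42 (SE 0.25, 5.36-fold higher in epiWAT, limma adjusted p = 5.11e-05). Wt1 was dim enough that it fell out of the filter on dim genes after quantile normalization. Tcf21, a basic helix-loop-helix factor of visceral mesenchyme, read 4.18, 3.76, 3.995 and 5.19 in ingWAT and 6.94, 8.29, 6.997 and 6.57 in epiWAT. It differed by -2.92 (SE 0.58, limma adjusted p = 0.0149; adjusted p = 0.0533 without epiWAT array 2). All 10 tested genes of the visceral developmental list had a negative difference, with a median of -0.73. Of the 10, 2 passed the threshold, where 0.945% of all genes tested were lower. The other 8 ranged down to -1.09 (Osr1, limma adjusted p = 0.216).

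Hox genes, which keep a record of position along the body axis, differed in single members only. Of 33 measured, 20 passed the filter on dim genes, and Hoxc10 alone passed the threshold, which 1.97% of all genes tested passed. Hoxa10 read 8.55, 8.79, 8.56 and 6.49 in ingWAT and 5.41, 5.58, 4.54 and 5.29 in epiWAT, a difference of 2.89 (SE 0.79, limma adjusted p = 0.061) with no overlap. Hoxc4 had a difference of -0.96 (limma adjusted p = 0.0527), Hoxc9 of 0.71 (adjusted p = 0.135) and Hoxa3 of 1.11 (adjusted p = 0.116). The bright members Hoxc8 and Hoxc6 did not pass, with differences of -0.76 (SE 0.50, limma adjusted p = 0.462) and -0.07 (SE 0.37, adjusted p = 0.945).

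**Figure D3:**
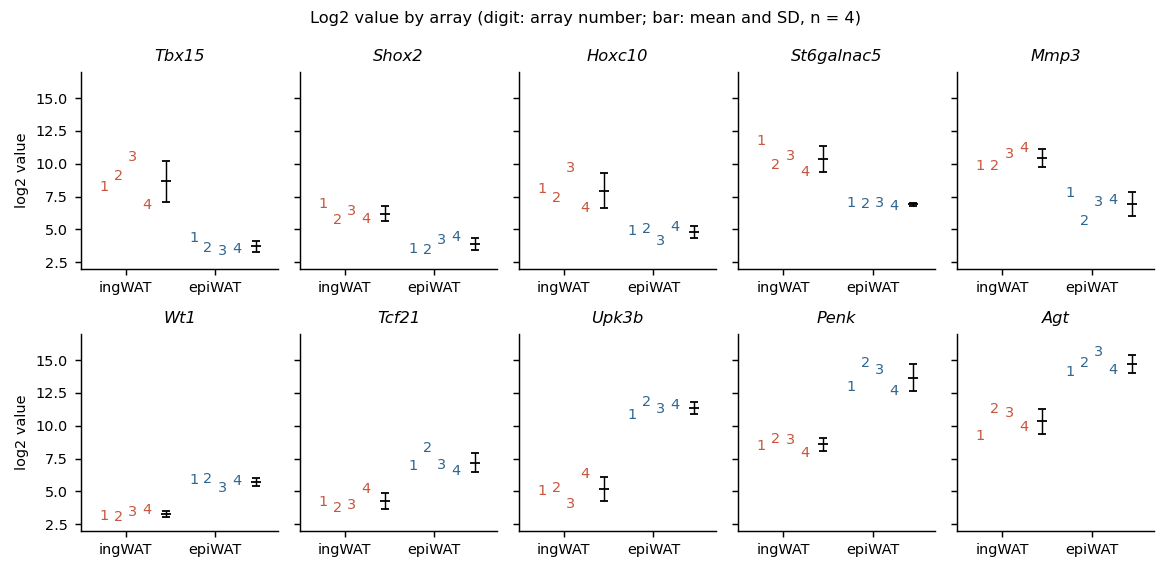
Log2 value (vertical axis) of 10 genes in each WT marrow array; each digit is the number of an array within its depot, red for ingWAT and blue for epiWAT, and the bar beside each group is the mean with its SD (n = 4). In each of the 10 genes the 2 depots do not overlap; Tbx15 spreads from 6.85 to 10.5 in ingWAT, whereas Wt1 spreads from 3.06 to 3.56.

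The promoters of Shox2 and of Upk3b, the mesothelial gene described next, are shown because they belong to a gene of each depot with the windows at hand; each is the 250 bases before the gene's start in RefSeq on GRCm38.p6, with any of the motifs searched in capitals. The motifs were the E-box CAGCTG, the box TATAAA, the GATA motif GATAAG and the MEF2 motif by name, each on both strands.
Shox2 promoter, chr3:66981772-66982021, minus strand: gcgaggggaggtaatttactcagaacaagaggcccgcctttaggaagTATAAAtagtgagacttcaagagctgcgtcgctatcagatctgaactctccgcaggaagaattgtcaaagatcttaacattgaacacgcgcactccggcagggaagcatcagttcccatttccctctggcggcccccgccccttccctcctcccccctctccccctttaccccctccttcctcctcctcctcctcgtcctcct
Upk3b promoter, chr5:136038246-136038495, plus strand: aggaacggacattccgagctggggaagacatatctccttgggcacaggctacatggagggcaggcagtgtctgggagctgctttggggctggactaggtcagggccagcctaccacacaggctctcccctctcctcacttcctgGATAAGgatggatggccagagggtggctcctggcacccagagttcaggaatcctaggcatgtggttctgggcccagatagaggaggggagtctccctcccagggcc
In the Shox2 window the capitals mark TATAAA, which 9.13% of the 11689 tested genes with such a window also held. In the Upk3b window they mark GATAAG, held by 4.89% of all windows, by 7.07% of those of the genes lower in ingWAT and by 2 of 12 mesothelium genes with a window.

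Among the lists lower in ingWAT, the mesothelial list had the most members past the threshold. Of 17 tested members 9 were lower in ingWAT and 0 higher, where 0.945% of all genes tested were lower, and the list's median difference was -2.75. Upk3b, a uroplakin that marks mesothelium, read 5.04, 5.29, 4.07 and 6.31 in ingWAT and 10.8, 11.8, 11.3 and 11.6 in epiWAT. The gap between the depots far exceeded the spread within either. The difference was -6.19 (SE 0.79, 73.2-fold higher in epiWAT, limma adjusted p = 0.000651). Gpm6a, a membrane glycoprotein, read 6.53 to 7.07 in ingWAT and 8.96, 9.97, 10.95 and 11.5 in epiWAT (difference -3.58, SE 0.53, limma adjusted p = 0.00241). The remaining members past the threshold were Upk1b (-3.28), Nkain4 (-2.83), Rspo1 (-2.75), Wt1, Msln (mesothelin, -2.36), Lrrn4 (-1.93) and Aldh1a2 (-1.77).

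Rspo1 encodes a Wnt agonist and Aldh1a2 an enzyme that makes retinoic acid; both count in other lists too. The keratins Krt7, Krt8, Krt18 and Krt19, which mesothelium shares with other epithelia, had differences of -2.30 to -3.80 that did not pass the threshold (limma adjusted p = 0.168 to 0.253). Lgals7, Cldn15 and Bnc1 had positive differences of 0.08 to 1.18, none past it. Epididymis genes were also high in epiWAT, most in array 2; without that array 8 of the 17 members passed and the median was -2.34, and leaving out any 1 of the 8 arrays left 6 (epiWAT array 3) to 9. With ingWAT array 4 alone none of the 17 passed limma's adjusted threshold, 8 reached an unadjusted p under 0.05, and the median was -2.27.

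Skeletal muscle genes held the largest differences of the comparison. Of 20 tested members 15 were higher in ingWAT, against 1.03% of all genes tested, with a median difference of 6.32. Myh4, the fast IIb myosin heavy chain, read 17.9, 19.0, 19.6 and 4.73 in ingWAT and 3.46, 3.79, 3.94 and 4.08 in epiWAT. Arrays 1 to 3 were among the brightest values measured, and array 4 lay within 1 log2 unit of epiWAT. The difference of the means was 11.48 (SE 2.34, limma adjusted p = 0.0168). Atp2a1, the calcium pump of fast muscle, read 15.5, 17.7, 18.4 and 4.98 in ingWAT and 3.48 to 4.51 in epiWAT. Mylpf, a fast myosin light chain, read 12.96, 14.8, 17.6 and 5.70 against 3.65 to 5.30. Ckm, muscle creatine kinase, read 11.7, 14.6, 17.2 and 7.58 against 6.94 to 7.47.

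The other members behaved alike: Tnnt3 (difference 9.43) and Tnni2 (8.32), which are fast troponins, Ttn (titin, 8.50), Eno3 (muscle enolase, 5.93) and Myl1 (5.27) each had array 4 lowest in ingWAT. With array 4 as the only ingWAT array none of the 20 passed and the list's median was 0.72; without array 4, 19 of the 20 passed with a median of 8.31. Leaving out any 1 array left 2 (ingWAT array 2) to 19 members past the threshold, with medians of 5.41 to 8.31. With the 8 WT arrays fitted on their own none passed, and all 20 stayed at an unadjusted p under 0.05. The part of muscle beside the fat pad in these values was not tested.

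The promoter windows of 4 of these genes are shown because they moved together and each holds the E-box CAGCTG. Capitals mark CAGCTG and, in Myh4, also TATAAA and the MEF2 motif, which overlaps a TATAAA there.
Myh4 promoter, chr11:67237562-67237811, plus strand: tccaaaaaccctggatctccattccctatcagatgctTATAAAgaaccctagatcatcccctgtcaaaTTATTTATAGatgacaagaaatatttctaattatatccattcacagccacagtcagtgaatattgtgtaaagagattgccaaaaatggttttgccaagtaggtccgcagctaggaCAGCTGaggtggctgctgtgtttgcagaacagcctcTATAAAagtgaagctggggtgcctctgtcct
Atp2a1 promoter, chr7:126463074-126463323, minus strand: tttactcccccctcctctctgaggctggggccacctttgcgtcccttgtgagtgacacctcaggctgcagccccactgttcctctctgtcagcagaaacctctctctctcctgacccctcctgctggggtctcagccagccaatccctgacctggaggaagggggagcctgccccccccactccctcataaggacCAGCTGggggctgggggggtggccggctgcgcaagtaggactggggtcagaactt
Mylpf promoter, chr7:127211358-127211607, plus strand: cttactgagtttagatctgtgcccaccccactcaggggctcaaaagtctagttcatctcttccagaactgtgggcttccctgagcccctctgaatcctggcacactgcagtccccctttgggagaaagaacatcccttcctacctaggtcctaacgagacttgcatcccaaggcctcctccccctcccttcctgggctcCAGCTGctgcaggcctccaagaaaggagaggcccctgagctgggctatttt
Ckm promoter, chr7:19410844-19411093, plus strand: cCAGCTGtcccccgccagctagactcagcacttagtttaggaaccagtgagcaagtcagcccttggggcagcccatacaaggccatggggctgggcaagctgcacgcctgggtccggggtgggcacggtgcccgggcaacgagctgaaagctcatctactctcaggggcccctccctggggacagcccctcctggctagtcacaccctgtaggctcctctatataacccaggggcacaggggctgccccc
CAGCTG lay in the windows of 8 of the 15 muscle genes that had one (53.3%), of 19.4% of the genes higher in ingWAT, of 10.1% of those lower and of 11.7% of all 11689. The MEF2 motif lay in 4 of the 15, in 15.7% of the higher genes, in 5.05% of the lower genes and in 1.94% of all. TATAAA lay in 4 of the 15 and in 25% of the higher genes. The higher genes include members of the muscle list, so their shares are not separate from those of that list. A match is a description of these letters and not of a bound factor.

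**Figure D4:**
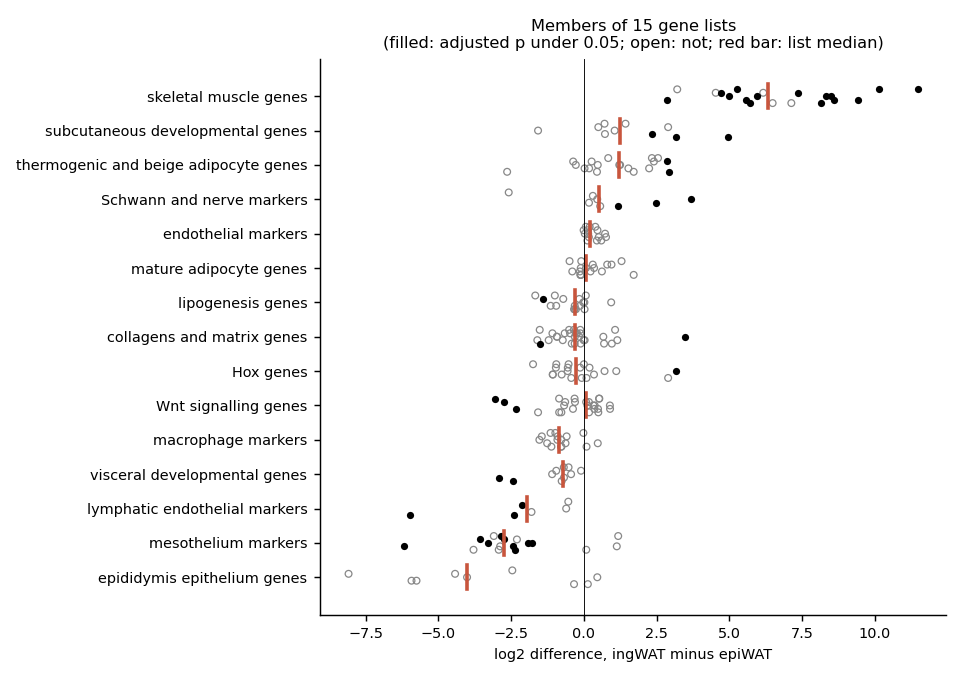
Log2 difference between the depots (horizontal axis, ingWAT minus epiWAT) for the tested members of 15 gene lists (rows), 1 point per gene; filled points passed the threshold, open points did not, and the red bar is the list's median. The muscle list (median 6.32) lies furthest to the right and the mesothelium (-2.75) and epididymis (-4.02) lists furthest to the left, the last with 0 of 9 members past the threshold.

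Genes of Schwann cells, which wrap nerves, were higher in ingWAT for 3 of 8 tested members, beside 1.03% of all genes tested. Mbp, a myelin protein, read 8.87, 8.599, 9.43 and 9.98 in ingWAT and 5.69, 5.09, 4.81 and 6.54 in epiWAT. Here ingWAT array 4, with few muscle transcripts, was the highest of its group. The difference was 3.69 (SE 0.72, 12.9-fold, limma adjusted p = 0.0149). Cdh19, a cadherin of Schwann cells and their precursors, read 7.02, 6.71, 4.99 and 7.12 against 3.91, 3.57, 3.86 and 4.59 (difference 2.48, SE 0.40, limma adjusted p = 0.00526; 3.14 with ingWAT array 4 alone, adjusted p = 0.0386). Sox10, the transcription factor of that lineage, differed by 1.16 (limma adjusted p = 0.0412). Of the 8 members 7 had a positive difference and 1 a negative difference of -2.58, which did not pass, and the median was 0.51. Leaving out 1 array left 1 (epiWAT array 3) to 3 of the 8. With the other marrows 1 of the 8 passed, higher in ingWAT, and the differences ran from -3.07 to 3.20.

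Other genes higher in ingWAT had among the smallest p-values. St6galnac5, a sialyltransferase, read 11.7, 9.88, 10.6 and 9.34 in ingWAT and 6.99, 6.91, 7.03 and 6.78 in epiWAT (difference 3.45, SE 0.51, limma adjusted p = 0.00241). Mmp3 (stromelysin 1, a matrix protease) read 9.86, 9.87, 10.8 and 11.2 against 7.74, 5.65, 7.13 and 7.28 (difference 3.48, SE 0.56, limma adjusted p = 0.00526). Cxcl14, a chemokine of fibroblasts and epithelia, read 9.79, 9.56, 9.75 and 9.18 against 6.28, 6.604, 5.91 and 5.62 (difference 3.47, SE 0.53, limma adjusted p = 0.0029). All 3 were also high in ingWAT array 4: with that array alone the differences were 2.41, 4.26 and 3.08, though limma's adjusted p was then 0.204, 0.116 and 0.19. Xirp1, an actin-binding protein of muscle, differed by 1.92 (limma adjusted p = 0.00241).

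Kcnj15, a channel gene, and Agt, Penk, Lcn2 and C1qtnf3, which encode secreted proteins, were higher in epiWAT. Kcnj15, an inward rectifier potassium channel, had the smallest p of all genes: 4.61, 4.73, 5.36 and 4.56 in ingWAT and 8.74, 7.71, 8.40 and 7.72 in epiWAT. The difference was -3.33 (SE 0.33, 10.0-fold higher in epiWAT, limma adjusted p = 4.65e-05), and it was -3.58 with ingWAT array 4 alone (adjusted p = 0.0331). Agt, angiotensinogen, read 9.20, 11.3, 11.03 and 9.88 in ingWAT and 14.1, 14.8, 15.6 and 14.3 in epiWAT (difference -4.36, SE 0.59, 20.6-fold, limma adjusted p = 0.00113). Penk, the precursor of the enkephalin peptides, read 8.46, 8.97, 8.91 and 7.96 in ingWAT and 12.9, 14.8, 14.2 and 12.6 in epiWAT (difference -5.07, SE 0.83, limma adjusted p = 0.00526). Neither gene overlapped between the depots.

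Lcn2, the iron-binding lipocalin 2, was the most variable of these: 6.01, 6.35, 7.45 and 6.93 in ingWAT and 12.7, 15.8, 17.1 and 10.3 in epiWAT. Its highest array, epiWAT 3, was the lowest of that group for epididymis genes (summed level 10.0). EpiWAT arrays 1, 2 and 4 ranked alike for Lcn2 and for those genes (15.3, 19.2 and 12.3). The part of epididymis tissue in these values was not tested. The difference was -7.30 (SE 1.77, limma adjusted p = 0.0369; -6.69 and adjusted p = 0.104 without epiWAT array 2). C1qtnf3, a secreted adipokine, differed by -1.74 (limma adjusted p = 0.00526). Those 3 of the list, Agt, Lcn2 and C1qtnf3, were the members past the threshold among 23 tested adipokine and secreted genes. Beside this, 0.945% of all genes tested were lower, and the list's median was -0.14.

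Several other genes were higher in epiWAT with no overlap. Col6a5, a collagen VI chain, read 3.39 to 5.003 in ingWAT and 7.39 to 8.74 in epiWAT (difference -3.93, limma adjusted p = 0.000789). Sult1e1, which inactivates estrogens by sulfation, differed by -3.88 (limma adjusted p = 0.0149) and Pkhd1l1, a large receptor-like protein, by -3.60 (adjusted p = 0.0101). Mgp, an inhibitor of calcification, read 9.21 to 10.1 against 12.9 to 13.5 (difference -3.57, limma adjusted p = 0.00904). Spock2, a proteoglycan, differed by -2.20 (limma adjusted p = 0.032).

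Some lymphatic genes were higher in epiWAT. Of 6 tested lymphatic endothelial markers 3 were lower in ingWAT, beside 0.945% of all genes tested: Ccl21a, Lyve1 and Pdpn. Lyve1, a hyaluronan receptor also carried by some macrophages, read 9.59, 9.51, 8.23 and 9.60 in ingWAT and 11.5, 10.8, 11.6 and 12.6 in epiWAT (difference -2.40, limma adjusted p = 0.0286). Pdpn (podoplanin, also mesothelial) read 7.99 to 8.35 against 9.80 to 10.7 (difference -2.13, limma adjusted p = 0.00732). Leaving out 1 array left 1 (ingWAT array 2) to 3 of the 6. Prox1, the transcription factor that defines lymphatic endothelium, had a difference of -1.80 (limma adjusted p = 0.106).

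Ccl21a, a chemokine of lymphatic vessels and lymph nodes, read 7.94, 6.90, 6.51 and 7.34 in ingWAT and 12.9, 11.9, 14.1 and 13.7 in epiWAT (difference -5.99, SE 1.29, limma adjusted p = 0.0216). Ccl21b (-6.75), Ccl21c (-6.98) and Gm10591 (-7.61) are near-identical copies, so how the signal divides among them is uncertain. Where the marrow was Gipr-/- these 4 genes differed by -4.85 to -6.63, and where it was double-knockout by 0.01 to 0.77. In the latter group ingWAT arrays 1 and 3 read 16.5 and 16.4 for the summed lymph node stroma list, which itself holds Ccl21a, against 9.28 to 11.2 in the 8 other ingWAT arrays. The part of lymph node tissue in these values was not tested.

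Developmental signalling lists differed in few members, where 1.97% of all genes tested passed in either direction. In the Wnt list 3 of 25 were lower in ingWAT, beside 0.945% of all genes tested. They were Sfrp1 (-3.05, limma adjusted p = 0.0236) and Sfrp4 (-2.34, adjusted p = 0.0384), secreted Wnt antagonists, and the agonist Rspo1. Sfrp1 read 4.71, 6.15, 4.47 and 6.12 in ingWAT and 8.58, 8.51, 9.41 and 7.17 in epiWAT. The list's median was 0.08, and 0 to 2 of the 25 passed without 1 array. Among 15 retinoid genes Rxrg, a nuclear receptor, was higher (1.95, limma adjusted p = 0.0304; 0.89 with ingWAT array 4 alone) and Aldh1a2 was lower. Of 28 BMP and TGF-beta genes Ltbp2, a latent TGF-beta binding protein, was lower (-1.37, limma adjusted p = 0.0198). In 29 collagen and matrix genes Mmp3 was higher and Eln (elastin, -1.5, limma adjusted p = 0.0494) lower.

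Genes of adipocyte function passed the threshold at a share near that of all genes tested (1.97%). None of 17 mature adipocyte genes passed limma's threshold, and their median was 0.07. Of these 17, 2 reached an unadjusted p under 0.05 by limma, beside 16.6% of all genes tested. None of 15 lipolysis genes (0 unadjusted) and none of 18 fatty acid oxidation genes (3 unadjusted) passed either. Adipoq differed by -0.10 (SE 0.23, limma adjusted p = 0.865) and Lep by -0.14 (SE 0.46, adjusted p = 0.915). Of 17 lipogenesis genes Acly, which makes cytosolic acetyl-CoA, was lower in ingWAT (-1.40, limma adjusted p = 0.0433), with a list median of -0.32. Of 19 insulin signalling genes Grb14, an adaptor that inhibits the insulin receptor, was higher: 8.46, 7.55, 7.42 and 8.58 against 6.73, 6.35, 6.84 and 6.06 (difference 1.5, limma adjusted p = 0.0306).

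In the thermogenic list 2 of 19 genes were higher in ingWAT, beside 1.03% of all genes tested. They were Cox7a1 (2.85, limma adjusted p = 0.0304) and Ckmt2 (2.92, adjusted p = 0.0353), and both are also mitochondrial genes of muscle. Cox7a1 read 8.46, 10.4, 11.96 and 7.44 in ingWAT against 6.11 to 7.14, in the order of the muscle genes. The part of muscle tissue in the values of this list was not tested. The list's median was 1.22, and 16 of the 19 had a positive difference. Of these, 11 reached an unadjusted p under 0.05 by limma, beside 16.6% of all genes tested in either direction. The median was 0.51 with ingWAT array 4 alone, where 0 passed. Leaving out 1 array left 0 (epiWAT array 2 among them) to 5 (ingWAT array 4) of the 19. With the other marrows 6 of the 19 passed, all higher in ingWAT (1.48% of all genes tested were), with a median of 0.81. Differences in the list with WT marrow ran from -2.64 to 2.92, and 1 member was lower in ingWAT at an unadjusted p under 0.05 by limma. Prdm16 (1.24) and Cidea (1.71) were among the members that did not pass (limma adjusted p = 0.091 and 0.0846).

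Immune lists gave 0 to 2 calls each, the most in the chemokine list (2 of 18), where 1.97% of all genes tested passed. None of 16 macrophage markers passed, although 14 had a negative difference and the list's median was -0.85. By limma 7 of them reached an unadjusted p under 0.05, beside 16.6% of all genes tested. Mrc1 was at -1.45 (limma adjusted p = 0.0914). With the epididymis list's mean as a covariate, added after the data were seen, 5 of the 16 passed. None of 18 lipid-associated macrophage genes passed by limma (6 at an unadjusted p under 0.05), nor of 13 B cell (1), 11 neutrophil and monocyte (1), 9 MHC class II (0) or 20 interferon response genes (0). In the chemokine list Cxcl14 was higher and Ccl8, a monocyte chemokine, lower (-1.74, limma adjusted p = 0.0495). Single calls came from Gzmb among 18 T and NK cell genes (1.19, limma adjusted p = 0.0236), Nr4a2 among 19 immediate early genes (1.22, adjusted p = 0.0289), Sema3c among 19 progenitor markers (-1.40, adjusted p = 0.0306) and Dsc3 among 15 skin genes (3.63, adjusted p = 0.045), which was highest in ingWAT arrays 1 and 2 like its list. Gipr (0.23), S100a8 (0.17) and S100a9 (0.29), the genes altered in the other marrows, had limma adjusted p = 0.807, 0.921 and 0.766.

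The same contrast was read in the 14 arrays with the other marrows, which share no array with the 8. Both contrasts came from the same fit of all arrays of the series, with a shared spread per gene. Their calls are therefore not independent. With the 14 arrays fitted alone, 209 genes passed by limma. In the shared fit 523 genes (3.61%) passed by limma for the other marrows, 215 (1.48%) higher in ingWAT and 308 (2.12%) lower. After centring each array on its median the split was 292 and 219. The count moved by over 1.5 times without any of 8 arrays, to 290 or 173 without Gipr-/- ingWAT array 2 or 3, 263 or 344 without double-knockout ingWAT array 1 or 3, 345 or 301 without Gipr-/- epiWAT array 1 or 2, and 288 or 1097 without double-knockout epiWAT array 3 or 4. Of the 286 genes, 273 had the same sign, but the share of all genes tested that did was not taken. In the same direction 96 (33.6%) passed, beside 3.61% of all genes tested in either direction. These 96 are 18.4% of the 523. The share that passed was 31 of 149 (20.8%) for genes higher in ingWAT and 65 of 137 (47.4%) for genes lower. Across the 14502 genes, which are not independent replicates, the differences correlated with r = 0.719.

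Given first for Gipr-/- and then for double-knockout marrow, Tbx15 differed by 3.55 and 3.17, Shox2 by 2.77 and 2.57, Wt1 by -2.56 and -1.96, Tcf21 by -2.54 and -2.82, and Upk3b by -4.54 and -6.51. St6galnac5 differed by 3.16 and 3.05, Mbp by 2.61 and 3.80, Agt by -2.84 and -5.30, Penk by -3.90 and -4.56, and Lcn2 by -5.60 and -8.74. Each of these 10 genes passed limma's threshold for the other marrows in the shared fit. In the mesothelium list 11 of 17 passed there, beside 3.61% of all genes tested, with a median of -2.12. Muscle genes were again uneven: the summed level was 14.1, 14.6 and 16.3 in the 3 Gipr-/- ingWAT arrays and 17.3, 19.94 and 13.8 in the 3 double-knockout ingWAT arrays, and 6 of 20 passed with a median of 3.08. Cdh19 differed by 0.09 and 1.95 and did not pass (limma adjusted p = 0.0659).

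**Figure D5:**
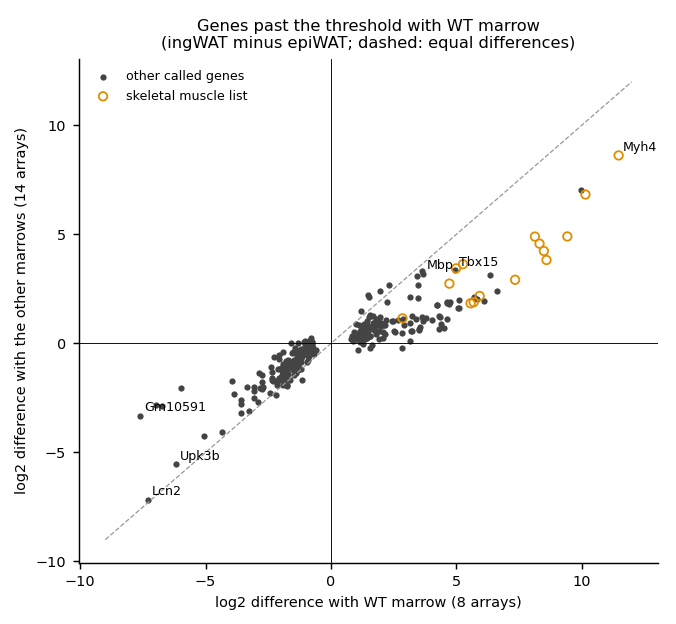
Log2 difference between the depots with the other marrows (14 arrays, vertical axis) against that with WT marrow (8 arrays, horizontal axis) for the 286 genes past the threshold with WT marrow; orange circles are the skeletal muscle list and the dashed line marks equal differences. Upk3b and Lcn2 lie near the line, and the muscle genes lie below it.

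Whether a depot difference depended on the marrow was tested gene by gene as the difference with WT marrow minus that with the other marrows. No gene passed by limma (lowest adjusted p = 0.277), and 883 (6.09%) reached an unadjusted p under 0.05. The smallest p belonged to Zfp207, a zinc finger protein, with a depot difference of -0.57 with WT marrow and 0.63 with the others. Cdc42se1 (-0.79 and 0.60), Xirp1 (1.92 and 0.21), Zscan2 (1.56 and -0.19) and Kctd15 (1.64 and -0.09) followed, with limma adjusted p = 0.464 to 0.777. Without ingWAT double-knockout array 2, 47 genes passed, and without ingWAT WT array 4, 6 passed.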

How the data were processed

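The authors deposited 1 table of log2 values for 22 arrays and 21793 features. The log base is a reading from the values, which run from 1.92 to 19.91; the base, the normalization and the role of Partek 6.6, which the submitters' processing notes name, are not given in the sources used here. Arrays carry no read depth, so their number limits the precision. The platform annotation named 19341 features with 1 symbol, 0 with several and left 2452 unnamed; of 4 genes with 2 features the brighter was kept, which left 19337 genes. Promoter windows and miRNA sequences came from RefSeq on GRCm38.p6, which 11689 of the genes tested matched.

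Groups came from the array titles, and array numbers follow the accession order. The titles also hold a numbered label whose meaning is not given. By that number WT ingWAT array 4 stands apart from arrays 1 to 3, and every epiWAT array comes before every ingWAT array. Depot and this order cannot be told apart. The labels do not say that each array is a separate mouse or which pads came from 1 mouse. The p-values therefore speak only of the spread among these arrays. All 22 arrays in 6 groups were fitted with limma 3.58.1 in R 4.3.3 (lmFit, eBayes with a trend), without the dimmest 25% of genes. Tests were two-sided with Benjamini-Hochberg adjustment over the 14502 genes left and a threshold of 0.05. An SD is over the 4 arrays of a group. The fit was tested on simulated data with 200 changed genes in each of 5 simulations. For the depot difference with WT marrow, run on 14502 genes, it recovered 25.2% of changes of 1 log2 unit, 78.8% of 2, 92.8% of 3 and 96.8% of 4. The simulated noise was independent between genes, with 1 spread per gene for all groups. In the real arrays the muscle list's mean had an SD of 3.99 in ingWAT and 0.09 in epiWAT, so these rates need not hold for genes that vary so.

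The comparison, its members and the 37 gene lists were chosen with earlier results of these data known. Genes named were, among genes past the threshold, the 12 per direction with the largest difference without overlap, the 5 per direction with the smallest p and the 12 per direction with the largest smallest-of-3 difference over the marrows; further, members of the lists, Hox genes, Gipr, S100a8 and S100a9, and the 5 with the smallest p between marrows. Alternatives changed the filter, the scaling, the features, the moderation, the array weights, the arrays fitted and each array in turn.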

Additional observations from a re-analysis of the deposited data

Results flagged for a closer look

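In groups of 4 arrays, a value was taken as standing apart when its gap to the nearest other array was a larger share of the group's whole range than Dixon's critical value allows. Of 264 groups looked at, 19 met this, where chance gives about 1 in 20. Of the 19, 6 were ingWAT array 4 and 4 were epiWAT array 2.

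In ingWAT, array 4 was low for Myh4 (gap 0.884 of the range), Hoxa10 (0.894) and Ccl21b (0.925), and high for the summed epididymis (0.866), testis (0.885) and red blood cell (0.837) lists. Array 3 was low for Lyve1 (0.933) and high for the smooth muscle and pericyte list (0.942). Array 2 was high for Cdc42se1 (0.859) and low for the summed Hox genes (0.884), and array 1 was high for the lipolysis list (0.839).

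In epiWAT, array 2 was high for Eno3 (0.891), Psat1 (0.923) and Ctsh (0.900) and low for the summed MHC class II list (0.846). Array 4 was high for Pkhd1l1 (0.876) and Cldn19 (0.879), array 3 was high for Ccbe1 (0.929), and array 1 was low for Msln (0.840).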

How the results depend on the processing

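No paired analysis was possible because the labels give no shared replicate number or mouse for the depots. With WT marrow the 286 calls became 154 without the dimmest 50% of genes, 791 with array weights, 129 with the 8 arrays alone and 92 to 318 without 1 array. Settings added after the data were seen gave 1 call with the muscle covariate and 6 with ingWAT array 4 alone, and the epididymis covariate gave 406. The other settings gave 231 to 353. With the other marrows the 523 calls became 1207 with array weights, 209 with their 14 arrays alone, 173 to 1097 without 1 array, 268 with the muscle covariate and 194 with the epididymis covariate. The 0 calls between marrows became 1 with array weights, 1 with ingWAT array 4 alone and 0 to 47 without 1 array. Among the called genes of the 94 given with values, the sign turned only with the muscle covariate, itself made of muscle genes: Ckm -0.90, Tnni2 -0.31, Ckmt2 -0.10 and Myh8 -0.58; the part of muscle tissue was not tested. There 80 of the 81 called genes among them lost their call or turned, and 78 lost it with ingWAT array 4 alone, against 0 with all features, 3 without a trend and 10 to 39 without 1 array. Signal near background limits what can be seen in the dimmest genes, which were left out.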

Other observations

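The genes in this part were chosen after their values were seen, so their tests are descriptions. Both Phgdh and Psat1, enzymes of serine synthesis, were higher in epiWAT: Phgdh read 11.3, 11.3, 11.03 and 10.9 in ingWAT against 12.8, 12.4, 12.4 and 12.7 (difference -1.44, SE 0.29, limma adjusted p = 0.0168), and Psat1 differed by -1.89 (adjusted p = 0.015). So were 3 glutathione transferases, with Gstm1 at 15.6 to 15.9 against 16.9 to 17.7 (difference -1.63, limma adjusted p = 0.00526), Gstm3 at -1.95 (adjusted p = 0.0149) and Gsta3 at -2.07 (adjusted p = 0.00904). With the other marrows Gstm1 differed by -1.69 and Gsta3 by -0.52. The lysosomal proteases Ctsc (-1.80), Ctsh (-2.19) and Lgmn (-1.17) were lower in ingWAT too (limma adjusted p = 0.00558, 0.0299 and 0.0469). Vegfd, a growth factor of lymphatic vessels, differed by -1.89 and Ccbe1, which helps to activate such factors, by -2.34 (limma adjusted p = 0.0419 and 0.00258). Further genes lower in ingWAT were Fmod (fibromodulin, -3.07), Fam180a (-3.07), the channel Kcnt2 (-2.15) and Igfbp2 (-1.48).

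Higher in ingWAT were Cldn19, a claudin of myelinating Schwann cells, at 6.04 to 6.88 against 4.63 to 5.13 (difference 1.69, limma adjusted p = 0.0142), Cmtm5 (2.88, adjusted p = 0.00631), the transcription factor gene Zfhx4 (1.94, adjusted p = 0.0218) and Net1, an activator of small GTPases (2.23, adjusted p = 0.0234). Myh8, the perinatal myosin heavy chain, read 16.5, 17.6, 19.2 and 4.50 in ingWAT against 3.80 to 5.57.

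Mir675, the precursor transcribed from the H19 locus, differed by 2.15 (SE 0.38, limma adjusted p = 0.00776), with 6.04, 6.05, 7.15 and 4.63 in ingWAT and 3.83, 3.47, 4.32 and 3.68 in epiWAT. Array 4 was again the lowest in ingWAT, and the difference was 0.81 with that array alone (adjusted p = 0.502) and 0.45 with the other marrows. It gives rise to 2 mature miRNAs, on the minus strand at chr7:142577112-142577133 and chr7:142577078-142577099 of GRCm38.p6, shown as the products of that feature with the seed (bases 2 to 8) in capitals. The array reads the precursor's feature and not these products.
miR-675-5p: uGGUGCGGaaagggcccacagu
miR-675-3p: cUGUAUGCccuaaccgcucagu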
